A study of Mus musculus with 12 samples.

Results

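The 10 genes described here are early stress and growth response genes read in mouse colon: Fos, Fosb, Fosl1, Jun, Junb, Egr1, Atf3, Dusp1, Hspa1a and Hspa1b. They were taken by symbol from the authors' log2 normalized count table, which lists 40050 genes, and all 10 had 1 row there. Each also passed the filter on low values (normalized counts averaging 10 or more), as did 23263 genes in total. Immediate early genes are transcribed within minutes of a stimulus from factors already present in the cell, such as serum response factor and its partners at the end of MAP kinase cascades. Many of their products are transcription factors themselves, and Fos and Jun proteins pair up to form AP-1, which binds DNA at target genes. The heat shock genes Hspa1a and Hspa1b respond to protein damage through heat shock factor 1 and encode inducible Hsp70, a chaperone that helps damaged proteins to refold. Many cell types of the gut wall carry both responses.

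Whole colon was profiled in Glul∆Lyz2 mice, which lack Glul in myeloid cells, and in littermates with the floxed Glul f/f alleles, after water or DSS. Glul encodes glutamine synthetase, and DSS (dextran sulfate sodium) is a polymer that injures the colon lining. The 4 groups hold 3 libraries each and are called WT_H2O (f/f littermates on water), KO_H2O (knockout on water), WT_DSS (f/f littermates on DSS) and KO_DSS (knockout on DSS). Library numbers are those of the titles, which run 1, 2 and 4 in WT_DSS. The knockout name points to the Lyz2 gene, which is active in macrophages, monocytes and neutrophils, so other cells of the colon are not the intended target. Which cells lost Glul was not tested. Strain, age, sex, DSS dose and DSS duration are not given in the labels, nor is it stated that each library is 1 animal. The p-values therefore measure the spread between these libraries, which may be in part technical.

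Normalized counts are read counts that the authors divided by a factor for each library. Differences are log2 changes of normalized count + 1, given ± SE, from 1 limma fit over all genes and libraries, with Benjamini-Hochberg adjustment over all 23263 genes. Genes with an adjusted p under 0.05 are said to have passed. "Rose" and "fell" refer to these genes alone. Libraries held 27.1 to 41.2 M reads, apart from KO_DSS 2 with 19.8 M and KO_DSS 3 with 14.7 M, so low counts are least certain in those 2 libraries. The top 10 genes took 10.4% to 31.6% of the reads of a library, and the highest shares were in KO_H2O 3 and KO_H2O 1. Gm26917 and Gm42418, gene models known to collect ribosomal RNA reads, together made up 13.1% of KO_H2O 1 and 8.36% of KO_H2O 3, against 2.33% of KO_H2O 2 and 3.68% to 4.52% in WT_H2O, and were 1.53% to 2.12% in WT_DSS and 1.26% to 2.86% in KO_DSS. That share was lower on DSS without overlap in f/f littermates. Mitochondrial genes took 2.07% to 4.75% of a library, and 8.36% of KO_H2O 3. The part of these shares in the DSS comparisons was not tested. Epcam and all other listed markers of colon epithelium were detected in every group. Their summed normalized count lay between 1016300 and 1162000 in WT_H2O, 285340 and 879830 in KO_H2O, and on DSS 319680 and 607390 in WT_DSS and 329270 and 367590 in KO_DSS. The single markers did not follow this sum together. Averaged over genotypes, 2 of the 9 rose and 2 fell on DSS (Epcam, Cdh1, Cdx2 and Muc2 passed), with a median log2 change of 0.32. That median was 0.19 in f/f littermates and 0.44 in the knockout, where none passed. The sum of 6 neutrophil markers lay between 9.89 and 93.4 in WT_H2O and 19.1 and 382 in KO_H2O, with S100a9 and Cxcr2 at 0 in every library of both and Mpo at 0 in KO_H2O. On DSS that sum was 226 to 2939 in WT_DSS and 1207 to 8478 in KO_DSS, where Mpo was at 0. In whole tissue, fewer cells of a type and less RNA per cell cannot be told apart.

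Glul itself, the targeted gene, had normalized counts of 7852, 7709 and 2261 in WT_H2O and 1655, 5618 and 2725 in KO_H2O, and on DSS 7372, 7895 and 18267 in WT_DSS and 4225, 3273 and 6723 in KO_DSS. The genotypes overlapped on water and did not overlap on DSS, where all 3 knockout libraries were lower. The log2 difference of knockout from f/f was -0.81 ± 0.56 on water and -1.17 ± 0.56 on DSS, and neither passed (limma adjusted p = 1 and 0.952). Since Glul is also active in cells that the knockout does not target, these values are a weak check of the genotype labels.

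**Figure D1:**
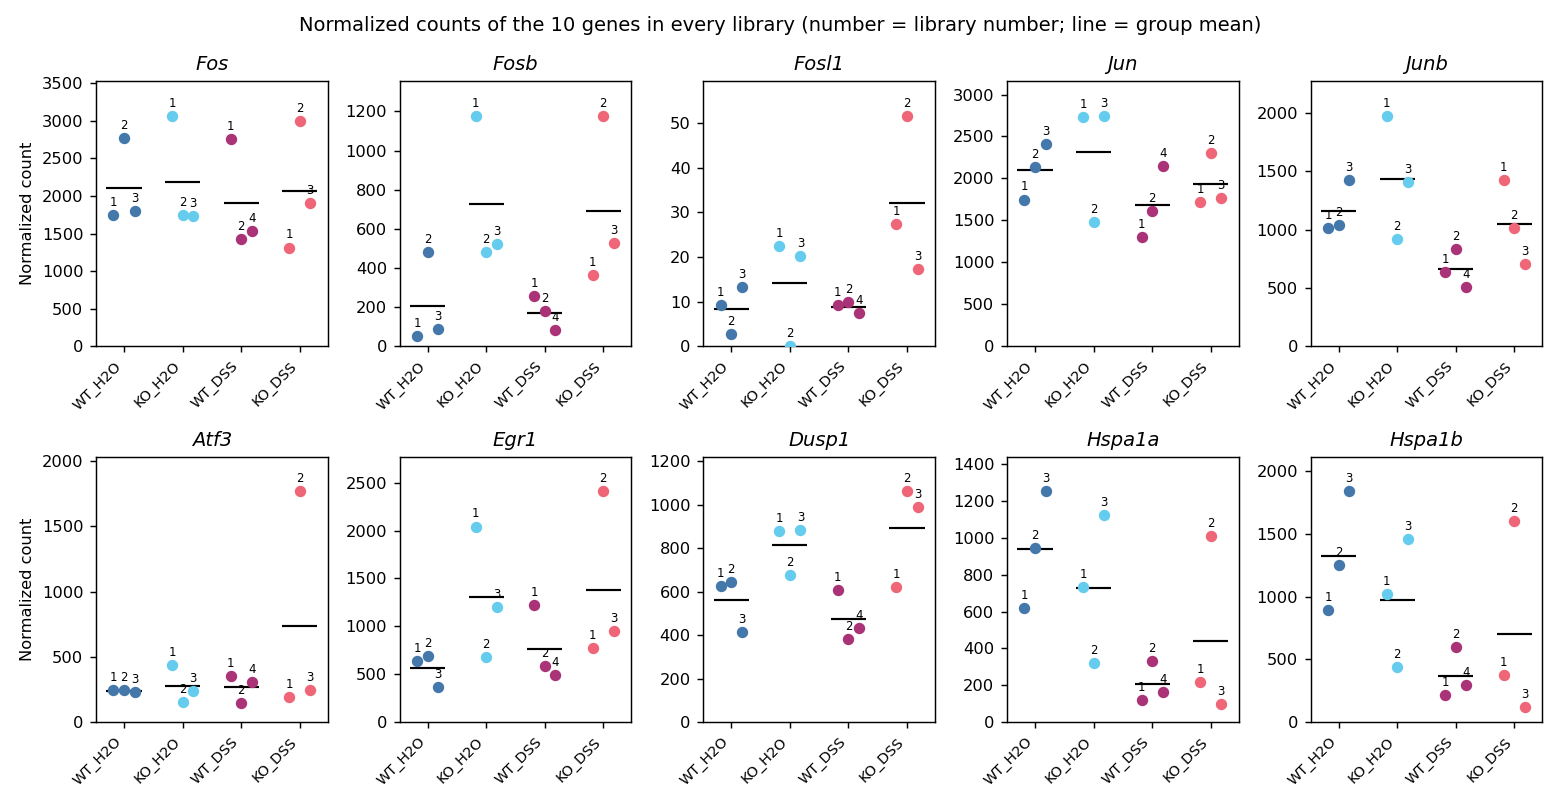
Normalized count of each of the 10 genes (linear axis from 0, a separate scale in each panel) in the 12 libraries. Points are libraries with their numbers, and horizontal lines are group means of 3 libraries. Hspa1a and Hspa1b lay below all WT_H2O libraries in all 3 WT_DSS libraries, and KO_DSS 2 was the highest library of its group for 9 of the 10 genes.

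Per length, Fos was the most abundant of the 10 genes, with a mean of 30.4 ± 8.93 FPKM (SD, n = 12 libraries), followed by Jun at 21.6 ± 3.86 and Junb at 16.0 ± 5.54. FPKM correct fragment counts for gene length and library depth and are the authors' deposited values. Below these lay Hspa1b at 10.1 ± 6.66 FPKM, Egr1 at 7.64 ± 4.47, Dusp1 at 7.17 ± 2.36, Hspa1a at 6.54 ± 4.5 and Atf3 at 6.01 ± 6.74. These 5 neighbours in the order differed by less than their spread over the libraries. Fosb followed at 2.46 ± 2.01 FPKM, and Fosl1 was close to the detection limit at 0.25 ± 0.22 FPKM.

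Inducible Hsp70 was the clearest difference between DSS and water. Both genes are intronless copies on chromosome 17, minus strand, of GRCm38: Hspa1a at chr17:34969190-34972156 and Hspa1b at chr17:34956436-34959238, with gene starts 12918 bases apart. The promoter windows are printed because the copies stood in the same order of libraries in every group and reads of one can come from the other. They are RefSeq windows of 300 bases on GRCm38.p6, minus strand, written 5′ to 3′, at chr17:34972107-34972406 for Hspa1a and chr17:34959189-34959488 for Hspa1b. Capitals mark the match to GAANNTTC, a pair of inverted heat shock element units.
Hspa1a: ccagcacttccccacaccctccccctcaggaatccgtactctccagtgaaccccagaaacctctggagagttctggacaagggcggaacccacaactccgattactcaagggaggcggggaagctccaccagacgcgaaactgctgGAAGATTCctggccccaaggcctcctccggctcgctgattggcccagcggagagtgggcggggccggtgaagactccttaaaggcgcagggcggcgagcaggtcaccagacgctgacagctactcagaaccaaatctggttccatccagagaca
Hspa1b: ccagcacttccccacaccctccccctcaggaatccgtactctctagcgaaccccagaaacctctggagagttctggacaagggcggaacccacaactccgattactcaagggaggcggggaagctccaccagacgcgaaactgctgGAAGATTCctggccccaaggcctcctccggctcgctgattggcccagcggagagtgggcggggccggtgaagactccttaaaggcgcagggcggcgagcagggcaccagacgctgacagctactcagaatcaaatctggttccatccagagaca
Both windows were identical at 296 of 300 bases (98.67%). Counted from 1 at the 5′ end, and from Hspa1a to Hspa1b, the differences were C44T, T47C, T249G and C276T. The capitals stand at bases 147 to 154 in both, and 7.86% of the 32851 RefSeq promoter windows hold GAANNTTC on either strand, so a match is a description and not a bound site. The transcripts are alike too: 58.8% of the 50-base windows of the Hspa1a transcript and 47.1% of its 100-base windows also occur in Hspa1b. How the authors' counting treated such reads is not given in the sources used here, so the split between the copies is uncertain and their sum is reported as well. Gm20481 overlaps Hspa1a on the other strand, and whether reads were counted by strand is not given either.

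Hspa1a had normalized counts of 622, 947 and 1253 in WT_H2O and 733, 323 and 1127 in KO_H2O, and on DSS 122, 333 and 166 in WT_DSS and 218, 1011 and 100.2 in KO_DSS. Among f/f littermates all 3 DSS libraries were lower than all water libraries, whereas in the knockout KO_DSS 2 was close to the higher water libraries and the groups overlapped. Hspa1b had normalized counts of 891, 1251 and 1840 in WT_H2O and 1023, 439 and 1458 in KO_H2O, and on DSS 213, 599 and 293 in WT_DSS and 372, 1605 and 124 in KO_DSS. Its libraries stood in the same order as those of Hspa1a within every group. The sum of both was 1513, 2198 and 3093 in WT_H2O and 1756, 763 and 2585 in KO_H2O, and on DSS 335, 932 and 459 in WT_DSS and 590.2, 2616 and 224 in KO_DSS. The lowest sum, in KO_DSS 3, rests on 143 reads in the shallowest library, and the highest, in WT_H2O 3, on 3754 reads.

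Averaged over the genotypes, Hspa1a fell on DSS with a log2 change of -1.72 ± 0.52 (95% confidence interval -2.85 to -0.59, limma adjusted p = 0.0291), a fold of 3.30. It was the 1 gene of 10 that passed in this comparison, in which 27.6% of all genes passed and 14.6% passed as lower. Hspa1b missed the threshold with -1.48 ± 0.55 (adjusted p = 0.0620). For the sum the averaged difference was -1.58, with p = 0.045 in an exact two-sided permutation test within genotypes, where 0.005 is the smallest p possible. The Hspa1a change was -2.25 ± 0.73 in f/f littermates (adjusted p = 0.0905) and -1.19 ± 0.73 in the knockout (adjusted p = 0.293), so it passed in neither genotype alone. In the knockout the change was -2.12 without KO_DSS 2, -0.46 without KO_DSS 3 and -0.79 without KO_H2O 3. Its interaction of genotype and DSS was 1.06 ± 1.04, with a 95% confidence interval from -1.20 to 3.32 (limma adjusted p = 0.9998), so a difference between the genotypes was not shown. With 1 library left out that interaction ran from 0.14 (without KO_DSS 2) to 1.80 (without KO_DSS 3). The sum differed by -2.05 in f/f littermates, where the exact permutation p of 0.1 is the smallest that 3 against 3 libraries allow, and by -1.11 in the knockout, with an exact permutation p of 0.5.

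The Hspa1a call depended on single libraries. It was lost without WT_H2O 2 (adjusted p = 0.0568), WT_H2O 3 (0.0620), KO_H2O 1 (0.0669), KO_H2O 3 (0.0714), WT_DSS 1 (0.0677), WT_DSS 4 (0.0531) or KO_DSS 1 (0.0565), while the log2 change stayed between -2.18 and -1.35. Without KO_DSS 2 it was -2.18 with an adjusted p of 0.00522, and Hspa1b then passed as well. The exact permutation p of the sum ranged from 0.01 to 0.1 with 1 library left out, and was 0.05 or more without WT_H2O 1, 2 or 3, KO_H2O 1 or 3, WT_DSS 1 or 4, or KO_DSS 1 or 3. Summed neutrophil markers were higher on DSS in the same libraries, as given above. The 4 of 6 that passed the filter on low values all rose in the averaged comparison, beside 13% of all genes. As these markers were low on water, that filter kept mainly those high on DSS, so this count is not separate support. Summed smooth muscle markers were 37891 to 299280 normalized counts in WT_H2O, 119440 to 189150 in KO_H2O, and on DSS 59736 to 81043 in WT_DSS and 51045 to 127180 in KO_DSS. The part of these cell types, and of the epithelial sum given above, in the Hspa1a and Hspa1b values was not tested. The read ratio of Hspa1b to Hspa1a was 1.29 to 1.47 in the water libraries, 1.74 to 1.80 in WT_DSS, and 1.71, 1.59 and 1.23 in KO_DSS. The part of the counting and of the expression of each copy in this ratio was not tested.

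The Fos family supplies the AP-1 partners that bind DNA mainly as dimers with a Jun protein. Fos, at chr12:85473890-85477273 (plus strand), had normalized counts of 1752, 2770 and 1800.5 in WT_H2O and 3066, 1752 and 1729 in KO_H2O, and on DSS 2756, 1421 and 1530.1 in WT_DSS and 1314, 2989 and 1903 in KO_DSS. Each group had 1 high library near 2756 to 3066 and the rest at or below 1903, and all groups overlapped. Its log2 change on DSS averaged over genotypes was -0.14 ± 0.26 (95% confidence interval -0.70 to 0.42), and its knockout differences were 0.03 ± 0.36 on water and 0.11 ± 0.36 on DSS.

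Fosb, which encodes a Fos relative with a long-lived splice form studied in the brain, lies at chr7:19302696-19310051 on the minus strand. Its normalized counts were 50.9, 482 and 86.5 in WT_H2O and 1177, 482 and 521 in KO_H2O, and on DSS 255, 180.2 and 83.2 in WT_DSS and 364, 1178 and 527 in KO_DSS. On DSS every knockout library was above every f/f library, and on water the groups met at one point, since KO_H2O 2 (481.52) lay just under WT_H2O 2 (482.21). Its group means on water were 207 ± 239 in WT_H2O and 727 ± 390 in KO_H2O, and on DSS 173 ± 86.1 in WT_DSS and 690 ± 431 in KO_DSS (SD, n = 3).

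Fosl1, the Fra-1 gene often induced in injured or invasive epithelium, lies at chr19:5447547-5455946 (plus strand) and overlaps Ccdc85b on the other strand. Its normalized counts were 9.25, 2.75 and 13.2 in WT_H2O and 22.5, 0 and 20.2 in KO_H2O, and on DSS 9.25, 9.96 and 7.41 in WT_DSS and 27.4, 51.6 and 17.2 in KO_DSS. All 3 KO_DSS libraries were above all WT_DSS libraries, at 11 to 38 reads each, and KO_H2O 2 had no read, which allows up to 1.58 normalized counts (3 reads). Counting error is therefore a large part of each of these values. The averaged log2 change on DSS was 1.09 ± 0.78 (limma adjusted p = 0.311).

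The Jun family members pair with Fos proteins or with each other. Jun, at chr4:95049034-95052222 (minus strand, with the antisense gene Junos overlapping), had normalized counts of 1749, 2138 and 2414 in WT_H2O and 2730.5, 1484 and 2748 in KO_H2O, and on DSS 1307, 1608 and 2143 in WT_DSS and 1716, 2307 and 1770.0 in KO_DSS. It varied least between libraries among the AP-1 genes (2.10-fold from lowest to highest), every group overlapped with the others, and its averaged log2 change on DSS was -0.28 ± 0.20 (limma adjusted p = 0.309).

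Junb, which can restrain Jun at shared targets, lies at chr8:84974484-84978718 on the minus strand, where Prdx2 overlaps it on the other strand. Its normalized counts were 1014, 1040.1 and 1422 in WT_H2O and 1974, 922 and 1410 in KO_H2O, and on DSS 634, 835 and 511 in WT_DSS and 1424, 1010 and 706 in KO_DSS. In f/f littermates all 3 DSS libraries were below all water libraries, and in the knockout the groups overlapped. The log2 change was -0.82 ± 0.33 in f/f littermates (limma adjusted p = 0.151), -0.45 ± 0.33 in the knockout (0.385) and -0.63 ± 0.23 averaged (0.0621), so it missed the threshold in each. It passed in the averaged comparison without KO_H2O 2, at an adjusted p of 0.0236.

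Egr1, a zinc finger factor induced through serum response factor and Elk proteins, lies at chr18:34859823-34864984 on the plus strand. Its normalized counts were 636, 686 and 369 in WT_H2O and 2042, 681 and 1204 in KO_H2O, and on DSS 1218, 590.4 and 491 in WT_DSS and 772, 2409 and 952 in KO_DSS. The highest knockout libraries were KO_DSS 2 and KO_H2O 1, and the genotypes overlapped under both treatments. Group means on water were 564 ± 170.2 in WT_H2O and 1309 ± 687 in KO_H2O, and on DSS 766 ± 394 in WT_DSS and 1377 ± 898 in KO_DSS (SD, n = 3).

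Atf3, a stress-induced factor of the ATF family that can dimerise with Jun proteins, lies at chr1:191170296-191218039 (minus strand). Its normalized counts were 249.8, 246 and 231 in WT_H2O and 434, 157 and 240.1 in KO_H2O, and on DSS 353, 147 and 310.5 in WT_DSS and 194, 1769 and 246 in KO_DSS. The WT_H2O libraries were close together at 242 ± 10.01 (SD, n = 3), whereas KO_DSS 2 alone was 8.04 times the mean of the other libraries of its group. The averaged log2 change on DSS was 0.43 ± 0.50 with all libraries and -0.08 without KO_DSS 2.

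Dusp1 encodes a nuclear phosphatase that switches off p38, JNK and ERK and so limits the cascades that induce the other genes. Its RefSeq promoter window is printed because, of the 8 genes with a window, it alone held the palindrome TGACGTCA, the cyclic AMP response element. That element occurs in 1.79% of the 32851 windows. The window lies at chr17:26508423-26508722, minus strand, on GRCm38.p6, and capitals mark the element at bases 108 to 115.
Dusp1: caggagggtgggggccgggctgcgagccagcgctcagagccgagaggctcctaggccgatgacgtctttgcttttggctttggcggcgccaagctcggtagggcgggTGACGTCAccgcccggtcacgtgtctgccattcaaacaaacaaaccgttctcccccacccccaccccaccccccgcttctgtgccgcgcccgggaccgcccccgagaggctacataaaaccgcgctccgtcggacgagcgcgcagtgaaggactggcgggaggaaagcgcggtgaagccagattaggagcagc
The gene model spans chr17:26505590-26562128 on the minus strand, so it starts at base 26562128. The printed window lies inside the model and marks another start. The model overlaps 4 others, including Ergic1 on the other strand. Its normalized counts were 625, 646 and 416 in WT_H2O and 880.1, 677 and 885 in KO_H2O, and on DSS 606, 383 and 432 in WT_DSS and 623, 1061 and 989 in KO_DSS. All knockout libraries were above all f/f libraries under water and again under DSS. The averaged log2 change on DSS was close to 0, at -0.07 ± 0.20 (95% confidence interval -0.50 to 0.36).

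**Figure D2:**
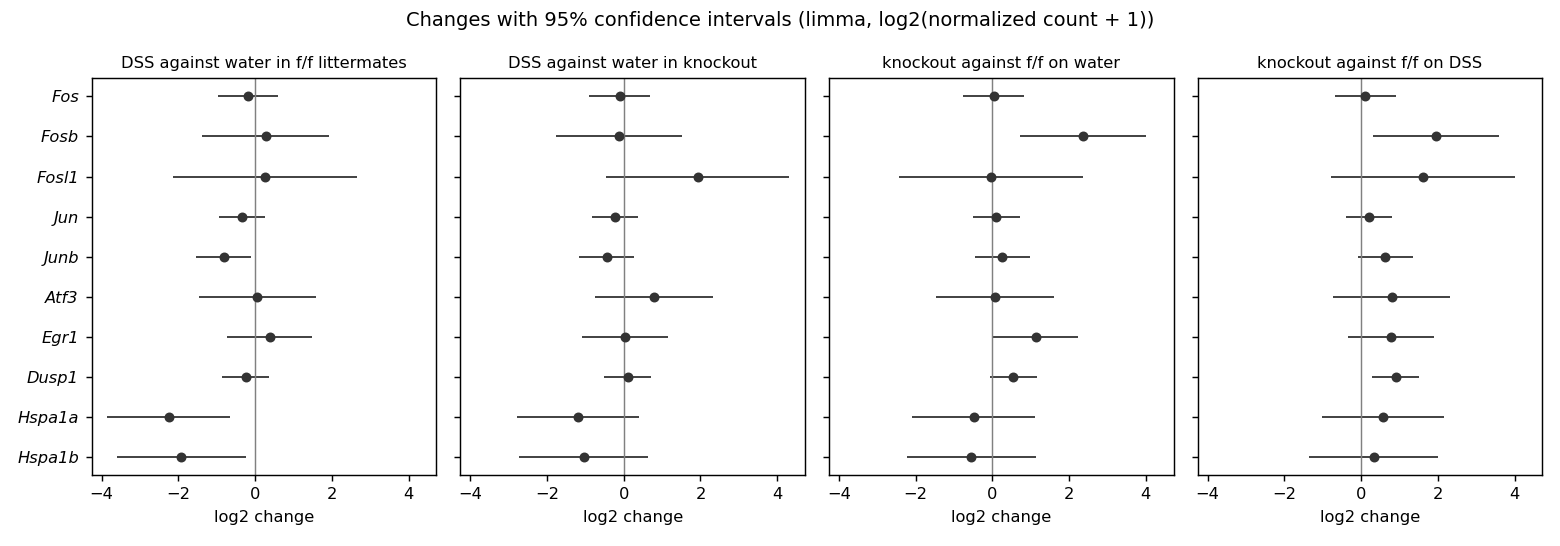
Log2 change of each gene (x axis, log2 of normalized count + 1) in 4 comparisons, with points for the limma estimate and lines for the 95% confidence interval. In f/f littermates the intervals of Hspa1a (-3.85 to -0.66), Hspa1b and Junb lay below 0 on DSS, and in the knockout that of Fosb lay above 0 on both treatments, as did that of Egr1 on water and of Dusp1 on DSS, but no gene passed after adjustment in these 4 comparisons.

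On DSS alone within a genotype, none of the 10 genes passed limma after adjustment. In f/f littermates 4.74% of all genes passed (2.16% higher and 2.58% lower). An unadjusted limma p under 0.05 was found for 3 of the 10 genes (Hspa1a, Hspa1b and Junb), and for 5763 of all 23263 genes. The same 3 were lower on DSS without overlap, as were 17.2% of all genes, and none was higher without overlap, against 16.9% of all genes. In the knockout 10.7% of all genes passed (5% higher and 5.71% lower), and none of the 10 had an unadjusted p under 0.05 or groups without overlap (14.7% of all genes higher, 16.7% lower). Of all 23263 genes, 6990 had an unadjusted p under 0.05 there. limma-voom on the recovered reads also called none of the 10 in either genotype. The median log2 change of the 10 genes was -0.21 in f/f littermates and -0.12 in the knockout, beside medians of -0.02 and -0.10 over all genes. These comparisons depended on scaling for their balance: genes that rose and fell numbered 503 and 600 in f/f littermates, 1162 and 1328 in the knockout, and 3020 and 3399 averaged, but 670 and 401, 1742 and 944, and 3933 and 2613 with upper-quartile scaling. That scaling moved the median of all genes on DSS up from -0.07 to 0.06 in the averaged comparison, and Hspa1a still passed there at -1.59 (adjusted p = 0.0399).

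Between genotypes no gene passed. Mean normalized counts were higher in the knockout under both treatments for 8 of the 10 genes, all but Hspa1a and Hspa1b. The log2 difference of Fosl1 on water was nonetheless -0.04, and the signs depended on single libraries, as given below. Fosb, Egr1 and Dusp1 are given here because they had the smallest p. The Fosb difference was 2.36 ± 0.76 on water (limma adjusted p = 1) and 1.95 ± 0.76 on DSS (limma adjusted p = 0.951). Dusp1 differed by 0.55 ± 0.28 on water and 0.90 ± 0.28 on DSS (limma adjusted p = 1 and 0.951). For Egr1 the differences were 1.12 ± 0.51 and 0.77 ± 0.51 (limma adjusted p = 1 and 0.966). These sizes rested in part on single libraries. On DSS Egr1 differed by 0.28 without KO_DSS 2, 0.51 without WT_DSS 4 and 1.17 without WT_DSS 1, and on water by 0.73 without KO_H2O 1. Dusp1 on water differed by 0.35 without WT_H2O 3. Without both shallow KO_DSS libraries the differences on DSS were 1.21 for Fosb, 0.42 for Dusp1 and 0.13 for Egr1, and with the FPKM table that of Fosb was 1.29 on water and 1.24 on DSS.

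limma called 0 of the 10 genes and 0% of all genes in either treatment. At an unadjusted p under 0.05 stood 2 of the 10 on water (Fosb, Egr1) and 2 on DSS (Fosb, Dusp1), with 757 and 1215 of all genes. limma-voom called 0 genes as well. Higher without overlap in the knockout were Dusp1 on water, where 5.16% of all genes were, and Fosb, Fosl1 and Dusp1 on DSS, where 2.99% were. None was lower without overlap, against 4.29% of all genes on water and 4.08% on DSS. On DSS all 10 genes had a positive difference, with a median of 0.70 beside -0.01 over all genes, and on water 7 of 10 did, with a median of 0.08. The count on DSS rested on KO_DSS 2: without it 6 of the 10 differences were positive, with a median of 0.18. Those of Fos, Atf3 (-0.21), Hspa1a (-0.35) and Hspa1b (-0.64) were then negative. The count on water also depended on single libraries. Without KO_H2O 1, 3 of the 10 were positive there (median -0.14), and without KO_H2O 2, 9 were (median 0.48). Averaged over treatments, a comparison added after the data had been seen, Fosb differed by 2.16 ± 0.53, Egr1 by 0.95 ± 0.36 and Dusp1 by 0.72 ± 0.20 (limma adjusted p = 0.953 for each). In that comparison 3 of the 10 and 1131 of all genes had an unadjusted p under 0.05, and limma and limma-voom called none. The interaction of genotype and DSS called 0 of the 10 and 0% of all genes in limma and in limma-voom, with 0 of the 10 and 640 of all genes at an unadjusted p under 0.05.

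**Figure D3:**
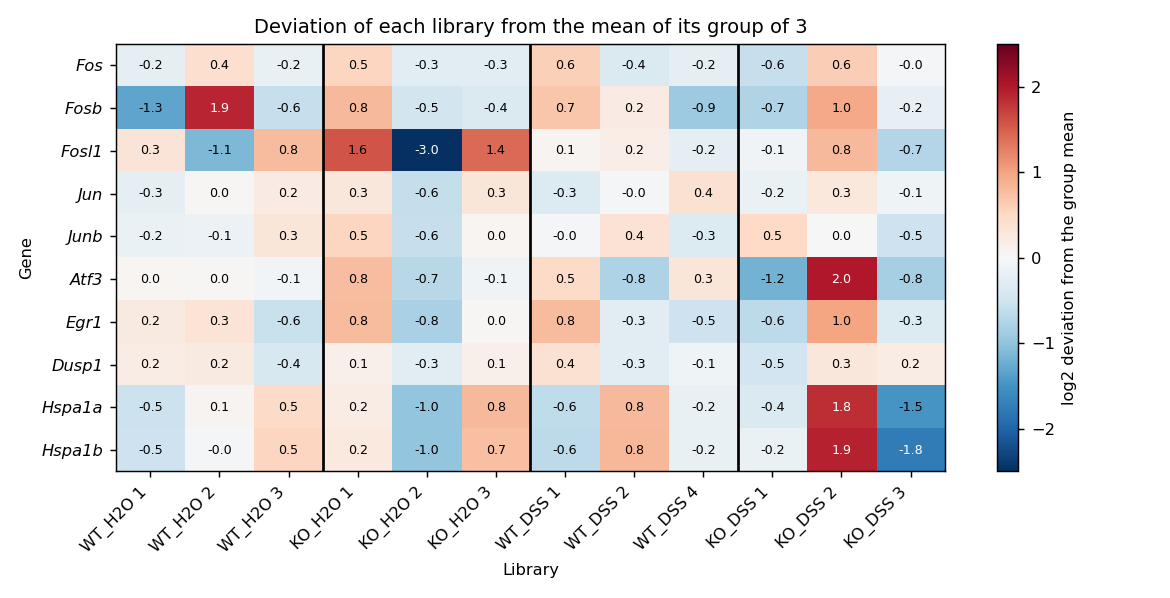
Deviation of each library (columns) from the mean of its group of 3, in log2 of normalized count + 1, for each gene (rows). Red cells are above and blue cells below the group mean, and vertical lines separate the groups. KO_DSS 2 is red for the heat shock genes, Atf3, Egr1 and Fosb together, and KO_H2O 2 is blue for all 10 genes.

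Within groups, most of the genes deviated in the same direction in a few libraries, by unequal amounts. KO_DSS 2 was the highest library of KO_DSS for every gene but Junb, with a median of 1.32 on the log2 scale above the other libraries of its group, while it was the highest for 32.4% of all genes tested, with a median of 0.03. KO_H2O 2 was the lowest of KO_H2O for every gene but Fos, with a median of -0.96, beside 40.6% of all genes and a median of -0.02. KO_H2O 1 was the highest for 6 genes, with a median of 0.80, beside 30.9% and -0.02. These libraries also differ in depth, since KO_DSS 2 held 19.8 M reads and KO_H2O 2 the most of all, 41.2 M. KO_H2O 2 further had the lowest epithelial marker sum of the water libraries (285340) and their highest neutrophil sum (382), and the highest macrophage (7855) and leukocyte (3773) sums of all 12 libraries. KO_DSS 2 was low in stromal markers for its group, with summed normalized counts of 51045 for smooth muscle (126330 and 127180 in the other KO_DSS libraries), 14212 for fibroblasts (32429 and 45662) and 1000.1 for endothelium (2119 and 4539). The part of depth and of cell makeup in these deviations was not tested.

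In KO_DSS 2, Hspa1b was 6.47 times, Hspa1a 6.36 times, Egr1 2.80 times and Fosb 2.64 times the mean of the other KO_DSS libraries, while Jun and Dusp1 were 1.32 times it. The SD within groups on the log2 scale was 1.44 for Fosl1, 1.13 for Hspa1b, 1.09 for Fosb, 1.06 for Hspa1a and 1.01 for Atf3. It was 0.73 for Egr1, 0.50 for Fos, 0.44 for Junb, 0.35 for Jun and 0.34 for Dusp1. The median over the 10 genes was 0.87, beside 0.53 over all genes tested, so a given log2 change had a larger SE here for most of them.

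The genes most like Fos across the 12 libraries, after the group means were subtracted, were H2afx (Pearson r = 0.93), Rxrb (0.92), Dnase1 (0.89), Pif1 (0.88) and Rbm8a (0.87), out of 13204 genes with a name and a mean normalized count of 50. For the sum of Hspa1a and Hspa1b they were Map3k11 (0.98), Prr13 (0.95), Arhgap17 (0.94), Marveld3 (0.94) and Dhx16 (0.94). Without KO_DSS 2 the correlations were 0.85 to 0.92 for the former and 0.90 to 0.97 for the latter. They describe these libraries, which share a scaling and a depth with each gene, and were picked as the highest of many.

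**Figure D4:**
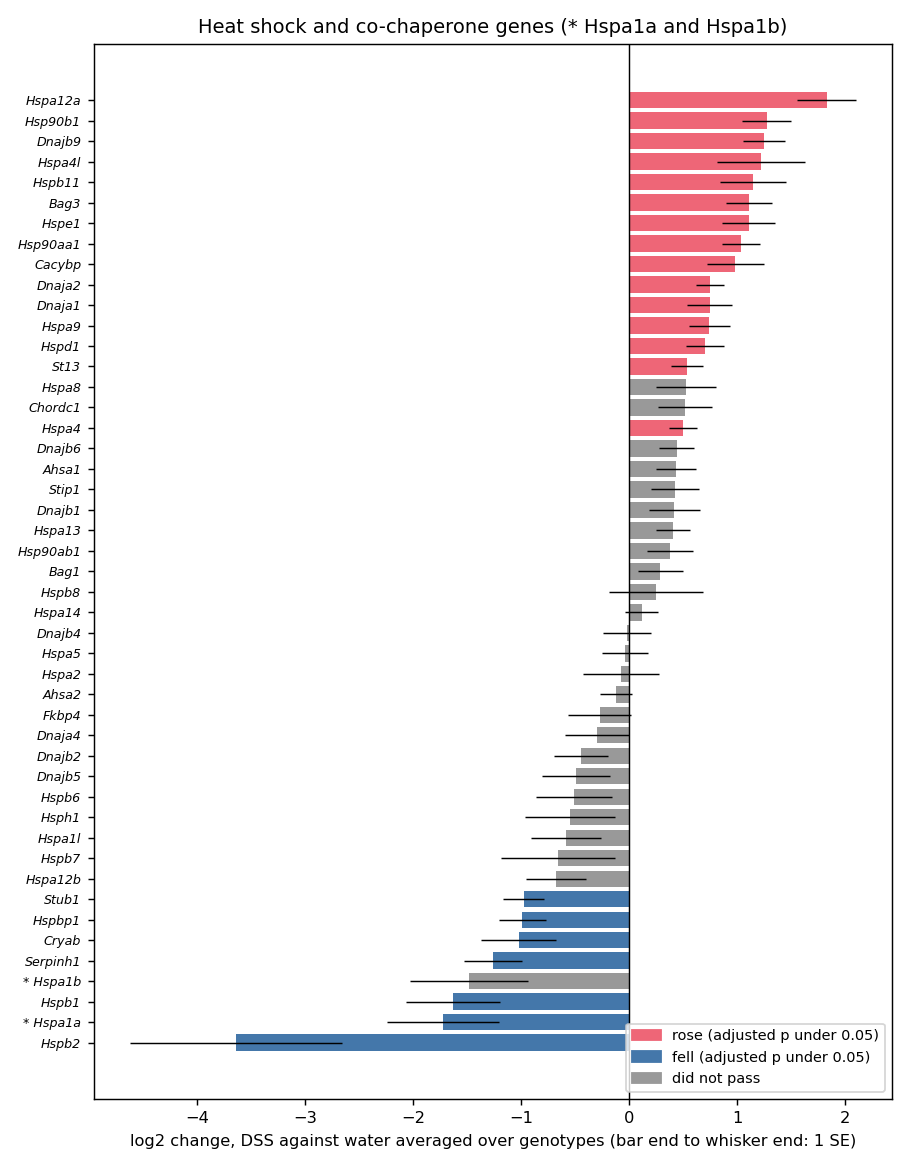
Log2 change on DSS averaged over genotypes for Hspa1a, Hspa1b and 45 other heat shock and co-chaperone genes, with whiskers of 1 SE. Red bars rose, blue bars fell and grey bars did not pass. Of the other 45 genes 15 rose and 6 fell, and Hspa1a is among the most negative; the bar of Hspb2 rests on 0 reads in all WT_DSS libraries and has no defined size.

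Other chaperones moved in both directions, more of them upward. Of 45 other heat shock and co-chaperone genes tested, 15 rose and 6 fell on DSS averaged over genotypes, with a median log2 change of 0.38 beside -0.07 over all genes, of which 13% rose and 14.6% fell. Hspa12a, a distant Hsp70 relative, rose by 1.83 ± 0.27 (limma adjusted p = 0.00142), from 390 ± 93.5 and 492 ± 122 normalized counts in WT_H2O and KO_H2O to 1542 ± 644 and 1714 ± 713 in WT_DSS and KO_DSS (SD, n = 3). Dnajb9, an endoplasmic reticulum co-chaperone, rose by 1.25 ± 0.20 (limma adjusted p = 0.00171). Hsp90aa1, the inducible cytosolic Hsp90, rose by 1.04 ± 0.17 (limma adjusted p = 0.00215), and the Hsp40 gene Dnaja2 by 0.75 ± 0.13 (limma adjusted p = 0.00247).

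Also higher were Hsp90b1, Bag3, Hspe1, Hspd1, Hspa9, Hspa4, Hspb11, Cacybp, St13, Dnaja1 and Hspa4l. Stub1, Serpinh1, Hspbp1, Hspb1, Hspb2 and Cryab fell. Hspe1, Hspd1 and Hspa9 encode mitochondrial chaperones, Hsp90b1 one of the endoplasmic reticulum, Hspb1 and Cryab small heat shock proteins abundant in muscle, and Serpinh1 a collagen chaperone. The list is named for heat shock, but these members also serve folding outside stress. With the title number as a block 9 of the 45 rose and 4 fell, and without both shallow KO_DSS libraries 10 rose and 3 fell. In f/f littermates Hspa12a rose and Hspbp1 fell, and neither passed without WT_H2O 1, 2 or 3 or WT_DSS 1, or with the block. Hspa12a was also lost without WT_DSS 2, and Hspbp1 without KO_H2O 1 or 3, WT_DSS 4 or KO_DSS 1, with upper-quartile scaling or with no filter. In the knockout 10 rose and 2 fell, but 0 did without KO_H2O 1, 1 rose without KO_H2O 3 and 3 rose without KO_DSS 2. None of the 45 passed between genotypes or in the interaction, so a difference of the DSS change between genotypes was not shown.

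Other immediate early genes moved in both directions. Of 37 tested, 5 rose and 5 fell on DSS averaged over genotypes, with a median of -0.10. Klf6, a zinc finger factor, rose by 1.04 ± 0.21 (limma adjusted p = 0.00487), and Myc, a growth regulator, by 0.76 ± 0.19 (limma adjusted p = 0.0140). Nr4a1, an orphan nuclear receptor, fell by 1.31 ± 0.31 on the log2 scale (limma adjusted p = 0.0104) and Ier5, which can activate heat shock factor 1, fell by 0.81 ± 0.21 (limma adjusted p = 0.0160). Socs3, Phlda1 and Tiparp rose too, and Sik1, Btg2 and Sgk1 fell. With 1 library left out 2 to 6 rose and 2 to 5 fell, and a count moved by over 1.5 times without WT_H2O 1, 2 or 3, KO_H2O 1 or 3, WT_DSS 2 or 4, or KO_DSS 1. With upper-quartile scaling 7 rose and 3 fell, with the title number as a block 2 and 4, and without both shallow KO_DSS libraries 3 and 1. The 5 of 37 in each direction lay near the shares of all genes. Among f/f littermates only Nr4a1 passed, as lower. That call was lost without WT_H2O 1 or 2, KO_H2O 3, any WT_DSS library or KO_DSS 1 or 2, with upper-quartile scaling, the FPKM table, limma-voom or the block, and with no filter. In the knockout Myc, Klf6 and Phlda1 rose, though none of these 3 passed there without KO_H2O 1 or KO_H2O 3. At least 1 of them was lost without WT_H2O 1 or 2, KO_H2O 2 or any KO_DSS library. Myc and Klf6 were also lost with the block, and Phlda1 with limma-voom.

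Among 23 other AP-1 and ATF family genes, 6 rose and 3 fell averaged over genotypes, with a median of 0.03. Of all genes 13% rose and 14.6% fell there. Batf2, an AP-1 factor of interferon responses, rose by 1.85 ± 0.32 (limma adjusted p = 0.00241) and Creb1, the cyclic AMP response factor, by 1.21 ± 0.21 (limma adjusted p = 0.00282). Atf6b, an endoplasmic reticulum stress factor, fell by 1.17 ± 0.21 on the log2 scale (limma adjusted p = 0.00317) and Mafg, a small Maf protein, fell by 1.13 ± 0.26 (limma adjusted p = 0.0102). Jund, the Jun relative with the steadiest expression in many cells, fell from 3359 ± 809 and 3941 ± 1583 normalized counts on water to 2134 ± 528 and 2121 ± 630 on DSS (SD, n = 3, f/f and knockout). Without WT_H2O 2 or KO_H2O 3, with the FPKM table or with the block, 3 of the 23 rose, and without both shallow KO_DSS libraries 2 did. Creb1 rose and Atf6b fell in each genotype alone, but these calls were easily lost. In f/f littermates neither passed without WT_H2O 1 or 3, KO_H2O 1 or 3, WT_DSS 1 or 4 or KO_DSS 1. The same held with no filter or with the block. There 1 of them was lost without WT_H2O 2, WT_DSS 2 or KO_DSS 2, or with upper-quartile scaling or the FPKM table. In the knockout neither passed without KO_H2O 1 or 3 or KO_DSS 1, or with the block. There 1 of them was lost without WT_H2O 1 or 2 or KO_DSS 2 or 3, or with upper-quartile scaling.

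The kinases and factors that control both sets moved in both directions, with 7 of 38 higher, 7 lower and a median of -0.02, beside 13% and 14.6% of all genes. Map2k2, the ERK kinase MEK2, fell by 1.11 ± 0.19 on the log2 scale (limma adjusted p = 0.00245), while Map2k4, a JNK kinase, rose by 0.72 ± 0.14 (limma adjusted p = 0.00377). Elk4, a partner of serum response factor, rose by 0.56 ± 0.14 (limma adjusted p = 0.0123), and Hsbp1, which binds heat shock factor 1, rose by 0.77 ± 0.14 (limma adjusted p = 0.00290). Srf and Hsf1, which encode serum response factor and heat shock factor 1, fell from group means of 937 ± 267 and 926 ± 294 to 497 ± 51.8 and 566 ± 38.1, and from 744 ± 34.1 and 797 ± 224 to 461 ± 157 and 461 ± 11.8 (normalized counts, SD, n = 3, f/f then knockout). Without KO_H2O 1, 5 of the 38 rose and 4 fell, with the block 3 and 3, and without both shallow KO_DSS libraries 6 and 2.

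Of 19 other dual-specificity phosphatases none rose and 3 fell on DSS averaged over genotypes, namely Dusp28, Dusp18 and Dusp14, with a median of -0.57, beside 13% and 14.6% of all genes. With upper-quartile scaling 2 rose and 1 fell, with sample weights 2 rose and 6 fell, and without KO_DSS 3, 2 rose and 3 fell. Dusp28 fell by 1.21 ± 0.33 on the log2 scale (limma adjusted p = 0.0184). The 3 calls were weak: 0 of the list passed without KO_H2O 1, only Dusp28 passed without WT_H2O 1, WT_H2O 2, KO_H2O 3 or WT_DSS 1, and 5 fell without WT_DSS 2. No member of this list passed in either genotype alone, by limma or limma-voom. In each genotype 3 had an unadjusted p under 0.05, as did 5763 of all 23263 genes in f/f littermates and 6990 in the knockout.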

How the data were processed

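Total RNA of whole mouse colon was sequenced on an Illumina HiSeq 2500, per the labels' protocols. The authors deposited log2 normalized counts and log2 FPKM, 1 column per library; STAR and the GRCm38 and mm10 builds come from the submitters' processing notes. As for the counter, strand setting, annotation and versions, they were not given in the sources used here. The values of the deposited count table had the form log2(normalized count + 1), and 100% of them came out as whole reads (tolerance 0.01 reads, or 1e-06 of larger values), so depth could be read back. A total of 4 columns in a further deposited table match no sample label and were not used.

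Normalized counts were restored, genes with a mean of at least 10 were kept (23263 of 40050), and log2(normalized count + 1) was fitted in R 4.3.3 by limma 3.58.1 (eBayes with trend after lmFit and contrasts.fit, 8 residual and 3.86 prior degrees of freedom). A pseudocount of 1 understates changes of low genes. All 12 libraries entered 1 fit of 4 group means, with Benjamini-Hochberg adjustment for each comparison over all genes tested. The fit was tested on simulated data. The summed Hspa1a and Hspa1b were compared by exact two-sided permutation. Alternatives were other filters, a pseudocount of 5, upper-quartile scaling, the FPKM table, limma-voom, sample weights, the title number as a block, and libraries left out. Coordinates are GENCODE M21 on GRCm38 and promoter windows are RefSeq on GRCm38.p6, with 8 of the 10 genes matched (all but Egr1 and Fosl1). Python 3.11.15 with pandas 2.3.3 and scipy 1.17.1 did the rest.

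All 10 genes are named in every comparison, with the genes of 5 further lists that had the smallest p among those that passed (up to 4 a list) and the 5 closest genes by correlation. Lists of passing genes beyond these, Jund, Srf and Hsf1, were named after their values were seen. The genes and lists were chosen with earlier results of these data known.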

Additional observations from a re-analysis of the deposited data

How the results depend on the processing

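For Hspa1a the DSS change averaged over genotypes was negative under every alternative run, from -2.18 to -1.34. The number of the 10 genes passing there was 1, and became 2 with the FPKM table, 3 with sample weights, 2 without both shallow KO_DSS libraries (added after seeing the data), 0 with the title number as a block (Hspa1a adjusted p = 0.0766), and 0 to 3 with 1 library left out. In f/f littermates it was 0, and 1 with sample weights or without both shallow KO_DSS libraries, and 0 to 1 with 1 library left out, where Hspa1a passed without KO_DSS 2. The summed Hspa1a and Hspa1b differed by -1.45 with upper-quartile scaling (exact permutation p = 0.055), and by -2.05 to -1.17 with 1 library left out. Signs turned in every comparison. Averaged on DSS the turns were Dusp1 at 0.058 (upper-quartile scaling), Fosb at -0.015 (FPKM table), Egr1 at -0.039 (sample weights), and, without both shallow libraries, Fosb at -0.30, Egr1 at -0.12 and Atf3 at -0.16. With 1 library left out the averaged ranges were -0.30 to 0.0004 for Fos, -0.26 to 0.55 for Fosb, -0.17 to 0.047 for Dusp1, -0.047 to 0.40 for Egr1 and -0.076 to 0.72 for Atf3. Junb in the knockout was 0.057 without both shallow libraries, and the Hspa1b interaction ran from -0.088 to 1.76 with 1 library left out. Larger values turned as well without KO_DSS 2: Atf3 went from 0.79 to -0.22 for DSS in the knockout, from 0.79 to -0.21 for knockout against f/f on DSS and from 0.73 to -0.28 in the interaction, and Hspa1a from 0.57 to -0.35 for knockout against f/f on DSS. The cause was not tested.

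Deviations of libraries with the same title number had correlations from -0.18 to 0.24 over 15 pairs. Those of libraries with different numbers ran from -0.27 to 0.27 over 39 pairs. A weak shared effect could be missed in this way, so whether the numbers pair the samples is not known. With the number as a block 46 genes passed in f/f littermates, 1411 in the knockout and 4710 averaged, against 1103, 2490 and 6419 without it. Over all alternatives with all libraries these counts ran from 46 to 3558, 1411 to 4936 and 4710 to 8558, and with libraries left out from 14 to 1611, 94 to 3333 and 3868 to 6903. Between genotypes and in the interaction, 0 of the 10 genes passed under every alternative, and other genes passed in a few (up to 16 on water, 21 on DSS, 2 in the interaction and 11 averaged). Depth limits Fosl1 most, with 0 to 38 reads a library.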

Other observations

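In the RefSeq promoter windows of the 8 matched genes, GGGCGG (a GC box) occurred in 7 genes against 35.7% of all 32851 windows, and CCAAT in 5 genes (Atf3, Jun, Junb, Hspa1a and Hspa1b) against 37.4%. TATAAA occurred in Fos and Junb, against 13.6% of windows, and GAANNTTC also in Jun. Hspa1a and Hspa1b are counted separately here although their windows were identical at 296 of 300 bases, so their matches are not independent. The AP-1 element TGANTCA, the CArG box and the heat shock element of 3 units were found in 0 of the 8, against 7.81%, 1.63% and 0.603% of windows. TTCNNGAA, the other arrangement of 2 inverted heat shock units, was also found in 0 of the 8, against 8.52% of windows. Both strands were searched, and the element of 3 units contains GAANNTTC. A missing match says only that these letters are not in the window.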
